A study of Rattus norvegicus with 12 samples.

Results

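The comparison is between the left atrium and the left ventricle of rat hearts that had carried a volume load for 28 days. It sets the values of 6 of the 12 arrays of the series against each other. The 3 arrays titled as left atria after shunt were set against the 3 titled as left ventricles after shunt, over all probe sets other than the manufacturer's controls. All animals were male Sprague-Dawley rats of 225 to 275 g, with no age and no genetic change given in the labels, and all 6 pools came from rats with an aorto-caval shunt. This surgical link lets arterial blood run straight into the vena cava, so that more blood returns to the heart and every chamber fills more with each beat. The tissue was the left atrial appendage or the left ventricular free wall, so the body of the atrium, the septum and the valves were not sampled by intent. Each array held the RNA of a pool of 2 tissues, and there were 3 pools per chamber. The 6 arrays of sham-operated rats (no shunt), again 3 pools of each chamber, serve to show which chamber differences stood apart after the shunt. They also enter the estimate of spread behind every SE and p-value, the filter and the choice of probe set per gene.

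The atrium and the ventricle are built from related but distinct heart muscle cells. Atrial myocytes make their own light chains of myosin, store natriuretic peptides in granules and carry muscarinic potassium channels that slow the heart, under transcription factors such as Tbx5 and Nr2f2. Ventricular myocytes do most of the pumping work, burn mainly fatty acids in a dense set of mitochondria, and owe part of their identity to the Irx and Hey2 factors. The atrial appendage is also a thin wall with much connective tissue and a large outer surface, which is covered by the mesothelial layer of the epicardium.

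Values are log2 expression values of Affymetrix probe sets after RMA, a method that corrects background, brings the arrays to 1 distribution and sums the probes of a set. Differences are atrium minus ventricle on this log2 scale, so that a positive difference means higher in the atrium, and errors are standard errors (SE) of the fit with 3 pools per group. A gene is called where limma's Benjamini-Hochberg adjusted p over 18625 tested probe sets was under 0.05, and called at 1.5-fold where limma's test against a minimum difference of 1.5-fold passed as well. Probe sets differ in how strongly they bind, so levels of different genes are not set against each other. The lowest and highest values on the shunt arrays were 2.13 and 14.29. RMA gives no detection call, so a fold change with 1 chamber near the low end rests on a value that may be mostly background. In bulk tissue, fewer cells of a type and less RNA per cell cannot be told apart, and the p-values reflect only how much the pools varied.

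The chambers differed in a large part of the measured genes. Of 18625 probe sets, 7801 were called (41.9%), 4179 higher in the atrium (22.4%) and 3622 higher in the ventricle (19.4%). Taking 1 representative probe set per gene, 4840 of 10606 genes were called (45.6%), 2628 higher in the atrium (24.8%) and 2212 higher in the ventricle (20.9%). Most of these differences were small, since the median absolute difference was 0.45 among called genes. Over all genes it was 0.22, and the median difference was 0.01. At a minimum of 1.5-fold, 389 genes were called higher in the atrium (3.67%) and 279 higher in the ventricle (2.63%), 668 in all (6.3%). The 3 arrays of one chamber did not overlap with the 3 of the other for 53.4% of genes, the atrial arrays lying wholly above for 28.4%. A difference of at least 4 on the log2 scale was seen for 12 genes higher in the atrium and 10 higher in the ventricle. Counts of list members below are to be read against these shares.

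The chamber labels could be checked against defining genes before anything else. Myl2, the ventricular regulatory light chain of myosin (probe set 1388200_at), read 5.12, 5.67 and 4.91 in the 3 atrial pools and 13.63, 13.69 and 13.70 in the 3 ventricular pools. Myl4, the atrial essential light chain (1371293_at), read 13.38, 13.34 and 13.51 in atrium and 4.85, 5.35 and 5.10 in ventricle. Both genes separated the chambers as labelled in every pool. Ventricular pool 2 read higher than the other ventricular pools in 17 of 23 measured atrial myocyte genes and ventricular pool 1 read lowest in 14. The mean level over these 23 genes was 6.29, 6.66 and 6.45 in ventricular pools 1 to 3, against 8.94 to 8.99 in the atrial pools. What part this spread among the ventricular pools plays in the atrial gene differences was not tested, but the calls of the atrial myocyte genes named here held without ventricular pool 2. As a measure of RNA and labelling quality, the hexokinase control probe sets read higher at the 3′ than at the 5′ end by 0.80, 0.94 and 1.44 in atrium and by 1.23, 0.82 and 1.18 in ventricle, so the chambers overlapped. Arrays of 1 group correlated at 0.983 to 0.995 over probe sets and atrial with ventricular arrays at 0.938 to 0.950.

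**Figure D1:**
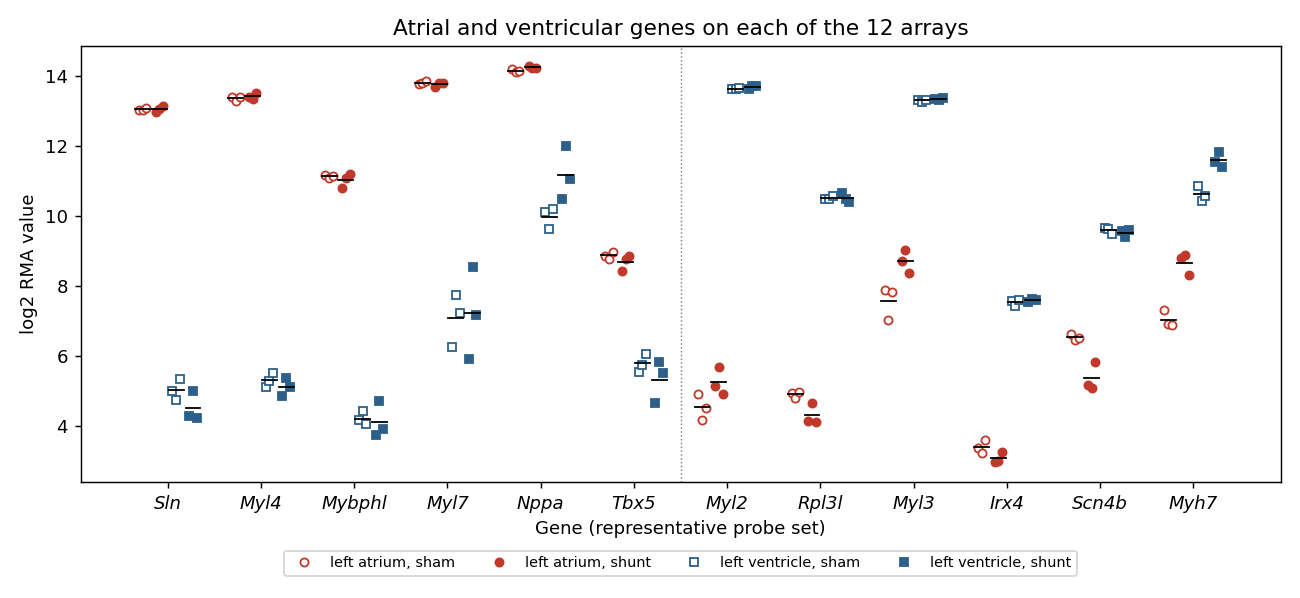
Log2 RMA value (vertical axis) of 12 genes, 6 that mark the atrium on the left and 6 that mark the ventricle on the right, with 1 point per array for sham and shunt pools of each chamber and a line at each group mean. The chambers stand apart in every gene, by 8.56 for Sln and by -8.44 for Myl2 after the shunt, and the ventricular shunt arrays spread from 5.91 to 8.55 in Myl7.

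For genes called at 1.5-fold, the 300 bases around the start of transcription are shown for 2 with atrial and 2 with ventricular excess, because each of these windows holds a match to a short motif of a factor family that works in heart muscle. Each run below is 5′ to 3′ on the gene's own strand, from 250 bases before to 50 bases after the start in RefSeq's GRCr8 assembly, and capitals mark the motif match. Nppb, the gene of B-type natriuretic peptide, lies on the plus strand at chr5:163699758-163700057, and Mybphl, a myosin-binding protein of atrial muscle, on the plus strand at chr2:198693202-198693501. Cox7a1, the muscle form of a subunit of cytochrome c oxidase, lies on the plus strand at chr1:94568966-94569265, and Fgf9, a growth factor of the fibroblast growth factor family, on the plus strand at chr15:36327108-36327407.
Nppb: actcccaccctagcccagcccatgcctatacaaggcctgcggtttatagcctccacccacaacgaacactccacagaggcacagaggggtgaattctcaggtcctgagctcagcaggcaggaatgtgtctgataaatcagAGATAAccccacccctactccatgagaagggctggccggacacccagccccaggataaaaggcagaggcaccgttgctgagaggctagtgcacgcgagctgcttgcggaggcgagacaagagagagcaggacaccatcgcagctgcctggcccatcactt
Mybphl: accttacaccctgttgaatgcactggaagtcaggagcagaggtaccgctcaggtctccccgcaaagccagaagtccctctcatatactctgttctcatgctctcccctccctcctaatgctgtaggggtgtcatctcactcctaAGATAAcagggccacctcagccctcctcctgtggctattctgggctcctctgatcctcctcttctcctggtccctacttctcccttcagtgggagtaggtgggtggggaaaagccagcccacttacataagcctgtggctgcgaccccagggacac
Cox7a1: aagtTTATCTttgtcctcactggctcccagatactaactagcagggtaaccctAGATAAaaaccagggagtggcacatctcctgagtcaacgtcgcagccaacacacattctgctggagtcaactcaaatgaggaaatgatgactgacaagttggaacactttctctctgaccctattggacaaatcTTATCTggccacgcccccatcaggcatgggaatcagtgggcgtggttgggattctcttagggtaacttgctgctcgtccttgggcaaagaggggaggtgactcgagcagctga
Fgf9: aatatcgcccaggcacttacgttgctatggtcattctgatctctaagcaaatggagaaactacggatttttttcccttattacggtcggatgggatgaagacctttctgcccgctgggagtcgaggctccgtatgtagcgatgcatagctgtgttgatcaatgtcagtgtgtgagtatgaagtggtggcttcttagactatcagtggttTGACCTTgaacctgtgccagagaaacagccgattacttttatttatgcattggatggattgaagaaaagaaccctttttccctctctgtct
The capitals in Nppb, Mybphl and Cox7a1 are AGATAA, the core letters bound by GATA factors, or the same letters read on the other strand (TTATCT), with 3 matches in Cox7a1. In Fgf9 they are AAGGTCA read on the other strand (TGACCTT), the core letters of oestrogen-related receptors, which govern mitochondrial genes. A match is a description of the letters and no evidence of binding.

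Both strands of the windows were searched, and 8850 of the 10606 measured genes had a window. A gene counted as holding a motif if any of its windows did, so the shares are of genes with a window. Genes with several windows had more chances of a match. AGATAA stood in 7.32% of genes called at 1.5-fold higher in the atrium, in 9.91% of those higher in the ventricle, in 6.67% of all measured genes and in 12.2% of all genes of the RefSeq promoter table. AAGGTCA stood in 3.48% of the atrial genes, in 6.13% of the ventricular genes, in 3.16% of measured genes and in 4.83% of the whole table. Of the 19 fatty acid genes with a window that were called at 1.5-fold higher in the ventricle, 0 held AAGGTCA (0.0%). In the whole fatty acid list, 3 of 42 genes with a window held that motif (7.14%). The motif of MEF2 factors was searched too. It stood in 0.348% of the atrial genes (1 gene), in 2.83% of the ventricular genes (6 genes) and in 0.87% of measured genes. Motifs of Tbx, NRF1 and SRF factors, the others searched, stood in 1.05%, 1.74% and 0.0% of the atrial genes. Their ventricular shares were 0.943%, 1.89% and 0.0%. No test was made of these shares.

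Among contractile proteins, large differences were seen in the light chains of myosin and a myosin-binding protein. Myl7, the atrial regulatory light chain, read 13.68, 13.79 and 13.80 in the atrial pools and 5.91, 8.55 and 7.17 in the ventricular pools, a difference of 6.55 ± 0.52 (limma adjusted p = 1.29e-06). The atrial pools were nearly equal and the ventricular pools spread over a wide range, without overlap. The difference in Myl4 was 8.31 ± 0.13 (adjusted p = 3.82e-12). Mybphl read 10.80, 11.06 and 11.18 in atrium and 3.73, 4.71 and 3.90 in ventricle (6.90 ± 0.20, adjusted p = 4.33e-10).

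On the ventricular side Myl2 differed by -8.44 ± 0.19 (adjusted p = 3.59e-11), which is 347-fold on values that were near the low end in atrium. A second probe set of Myl2 differed by -3.04, in the same direction but by far less. Myl3, the ventricular essential light chain, read 8.70, 9.03 and 8.35 in atrium and 13.34, 13.31 and 13.37 in ventricle (-4.65 ± 0.21, adjusted p = 1.17e-08). The slow myosin heavy chain Myh7 read 8.79, 8.89 and 8.30 in atrium and 11.55, 11.82 and 11.39 in ventricle (-2.93 ± 0.18, adjusted p = 1.47e-07), 7.6-fold higher in the ventricle. In all of these the 3 pools of a chamber stood clear of the 3 of the other.

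The fast myosin heavy chain Myh6, the main motor of the rodent heart, read 13.37, 13.43 and 13.47 in atrium and 13.32, 13.27 and 13.30 in ventricle. Its difference of 0.12 ± 0.06 did not pass (adjusted p = 0.0952). Over the 38 measured genes of the sarcomere list, 13 were higher in the atrium and 10 in the ventricle, 6 and 6 of them at 1.5-fold, and the list's median of 0.01 was that of all genes. The other ventricular members at 1.5-fold were Fhl2, a titin-binding LIM protein (-3.10), Lmod3, which seeds actin filaments (-2.63), and Acta1, skeletal alpha-actin (-1.51). The atrial side was filled by Neb, nebulin, the thin filament ruler of skeletal muscle (2.98), Myl1, a light chain of fast skeletal muscle (1.90), and Tpm2, beta-tropomyosin (1.08). Lmod3, Neb, Myl1 and Tpm2 were chosen for naming after their values were seen.

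Sln, sarcolipin, the small inhibitor of the calcium pump of atrial muscle (1374391_at), had the largest difference of any gene. It read 12.98, 13.06 and 13.14 in atrium and 4.28, 4.98 and 4.22 in ventricle (8.56 ± 0.18, adjusted p = 3.59e-11). Pln, phospholamban, the related inhibitor of the ventricle, read 12.38, 12.31 and 12.40 in atrium and 12.94, 12.85 and 12.92 in ventricle (-0.54 ± 0.06, adjusted p = 1.74e-05). Neither gene overlapped between the chambers, but Pln differed by less than 1.5-fold.

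The pump itself, Atp2a2, differed by 0.08 ± 0.05 and did not pass (adjusted p = 0.27). Of the 32 measured calcium handling genes, 10 were higher in the atrium and 8 in the ventricle, 4 and 2 of them at 1.5-fold, with a median of 0.07. Cacna1g, a T-type calcium channel found in pacemaking and atrial cells, read 6.81, 7.09 and 7.21 in atrium and 4.70, 5.07 and 4.91 in ventricle (2.14 ± 0.13, adjusted p = 1.81e-07). Itpr1, a calcium release channel gated by inositol trisphosphate, was higher in the atrium by 1.34 ± 0.09. Cacna1c, the pore of the L-type calcium channel that starts each contraction, differed by -0.99 ± 0.07 (adjusted p = 5.02e-07) and was chosen for naming after its value was seen.

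Both subunits of the acetylcholine-gated potassium channel, which carries the vagal slowing of the heart, were higher in the atrium. Kcnj5 read 9.41, 9.20 and 9.09 in atrium and 6.58, 6.43 and 6.58 in ventricle (2.70 ± 0.10, adjusted p = 1.91e-09). Kcnj3 read 8.19, 7.80 and 7.55 in atrium and 5.61, 5.65 and 5.52 in ventricle (2.26 ± 0.17, adjusted p = 9.71e-07), although other probe sets of this gene ranged from -0.11 to 2.50. Kcnk2, a stretch-sensitive background potassium channel, was higher in the atrium by 1.73 ± 0.10, with 0.07 at its other probe set. No pool of either chamber crossed into the other in these 3 genes.

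Kcnip2, the subunit that shapes the transient outward current, was higher in the ventricle. It read 8.26, 8.65 and 8.04 in atrium and 10.90, 11.04 and 11.05 in ventricle (-2.68 ± 0.20, adjusted p = 9.34e-07). Kcna5, the ultra-rapid potassium channel known from human atria, differed by 0.10 ± 0.17 and did not pass (adjusted p = 0.652). In the potassium channel list 7 of 26 measured genes were higher in the atrium and 6 in the ventricle, with a median of 0.04.

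Scn4b, a beta subunit of the cardiac sodium channel, was higher in the ventricle. Its values were 5.15, 5.07 and 5.83 in atrium and 9.57, 9.38 and 9.59 in ventricle (-4.16 ± 0.16, adjusted p = 3.39e-09, 17.9-fold). Hcn2, a pacemaker channel, differed by -1.11 ± 0.09 (adjusted p = 1.16e-06). The connexins, which join myocytes electrically, differed less. Gja5, the connexin of atrial muscle and conduction fibres, was 1.6-fold higher in the ventricle (4.99, 4.87 and 4.71 against 5.46, 5.62 and 5.53, -0.68 ± 0.09, adjusted p = 0.000107). The values of Gja5 were low, beside medians of 4.55 to 4.59 over all probe sets of the shunt arrays, so background may make up much of them. Gja1, the main connexin of working myocytes, differed by 0.03 ± 0.07 and did not pass (adjusted p = 0.783). Over this list of 18 measured sodium channels, pacemaker channels and connexins, 3 genes were higher in the atrium and 5 in the ventricle.

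The transcription factor list was drawn from factors known for chamber identity, so it says nothing of other factors. Tbx5 read 8.42, 8.77 and 8.84 in atrium and 4.65, 5.81 and 5.5 in ventricle (3.36 ± 0.24, adjusted p = 6.21e-07). Nr2f2, a nuclear receptor that maintains the atrial state, read 8.21, 8.19 and 8.36 in atrium and 6.18, 6.44 and 6.35 in ventricle (1.93 ± 0.08, adjusted p = 4.65e-09). Irx4 read 2.95, 3.0 and 3.24 in atrium and 7.54, 7.62 and 7.59 in ventricle (-4.52 ± 0.10, adjusted p = 3.59e-11). All atrial values of Irx4 lay near the bottom of the scale, and none of the 3 factors overlapped between chambers.

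Irx3, another Iroquois factor, was higher in the ventricle by a similar amount (-4.40 ± 0.14, adjusted p = 1.13e-09), and Hey2, a Notch-dependent repressor of atrial genes in the compact ventricular wall, by less (-1.67 ± 0.09, adjusted p = 6.79e-08). Nr2f1, the relative of Nr2f2, had a mean of 3.94 over the 12 arrays, below the 40th percentile at 4.01, and was not tested. Its values were 4.5, 4.31 and 4.15 in atrium and 3.60, 3.88 and 3.66 in ventricle. Of 30 measured transcription factors, 8 were higher in the atrium and 8 in the ventricle, 3 and 6 of them at 1.5-fold. The other 14 did not pass.

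As whole lists, 19 of 23 measured atrial myocyte genes were higher in the atrium and 1, Gja5, in the ventricle, with 15 called at 1.5-fold and a median of 1.90. Of 28 measured ventricular myocyte genes 20 were higher in the ventricle, 14 of them at 1.5-fold, 2 were higher in the atrium, and the median was -0.95. The 2 exceptions were Ankrd1, a stretch-responsive nuclear protein (0.45 ± 0.07), and Mylk3, the cardiac myosin light chain kinase (0.42 ± 0.05), both named after their values were seen. The mean level of the 28 genes was 9.67 to 9.69 in the ventricular pools and 7.82 to 7.93 in the atrial pools.

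Both natriuretic peptides, hormones that lower blood volume and pressure, stood higher in the atrium of the loaded heart. Nppa, the gene of atrial natriuretic peptide (1367564_at), read 14.29, 14.23 and 14.22 in the atrial pools and 10.48, 11.99 and 11.04 in the ventricular pools. Its first atrial value is the highest of any probe set on the shunt arrays, so the atrium stood at the upper end of the scale. The difference was 3.07 ± 0.28 (adjusted p = 4.52e-06), with no overlap and a wide spread in ventricle. These values carry no saturation flag, so whether the atrial signal was saturated was not tested, and no fold is given.

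Nppb, whose promoter is shown above, read 12.76, 12.88 and 12.78 in atrium and 11.27, 11.61 and 11.35 in ventricle (1.40 ± 0.15, adjusted p = 1.97e-05, 2.64-fold). Npr3, the receptor that clears natriuretic peptides, was higher in the atrium by 1.75 ± 0.15, and Pam, the amidating enzyme that is abundant in atrial granules, by 1.23 ± 0.07. Npr1, the guanylyl cyclase receptor of both peptides, differed by -0.30 ± 0.07 and Pcsk6, a protease that processes precursor proteins, by -1.21 ± 0.09. Pde9a, a phosphodiesterase of cyclic GMP, differed by -0.56, and all 3 were named after their values were seen. Over this list of 15 measured genes, 7 were higher in the atrium and 3 in the ventricle, with a median of 0.25.

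Hamp, which encodes the iron-regulating peptide hepcidin, was among the 8 largest atrial differences. It read 11.23, 11.28 and 10.81 in atrium and 5.30, 7.03 and 6.10 in ventricle (4.96 ± 0.36, adjusted p = 6.92e-07, 31.2-fold). Penk, which encodes the enkephalin opioid peptides, stood out on the ventricular side, with 5.46, 4.76 and 4.62 in atrium and 10.59, 10.48 and 10.69 in ventricle (-5.64 ± 0.20, adjusted p = 1.91e-09, 49.9-fold). Neither gene overlapped between the chambers.

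Growth factors and their binding proteins were mostly higher in the atrium, 26 of 42 measured genes against 8 higher in the ventricle, with a median of 0.71 beside 0.01 over all genes. At 1.5-fold the counts were 12 and 3. Sfrp1, a secreted antagonist of Wnt signals, read 8.15, 8.13 and 8.11 in atrium and 4.45, 5.22 and 4.5 in ventricle (3.41 ± 0.18, adjusted p = 4.52e-08). Ccn2, connective tissue growth factor, read 10.76, 10.58 and 10.52 in atrium and 8.27, 9.0 and 8.43 in ventricle (2.05 ± 0.20, adjusted p = 8.47e-06). Tgfb3 and Tgfb2, ligands of the TGF-beta pathway that drives matrix formation, were higher in the atrium by 1.51 ± 0.13 and 1.03 ± 0.12. Their relative Tgfb1 was higher in the ventricle (-0.54 ± 0.16, adjusted p = 0.0145), a call lost without ventricular pool 2 (-0.43, adjusted p = 0.0561). Ccn2 and the 3 Tgfb genes were named after their values were seen.

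The 3 growth factor genes called at 1.5-fold higher in the ventricle were Penk and the fibroblast growth factors Fgf16 and Fgf9. Fgf16 read 4.07, 4.11 and 3.57 in atrium and 6.69, 6.73 and 6.62 in ventricle (-2.76 ± 0.19, adjusted p = 3.42e-07). Fgf9 read 3.68, 4.07 and 3.57 in atrium and 6.19, 6.29 and 6.30 in ventricle (-2.49 ± 0.14, adjusted p = 6.72e-08). The atrial values of both were near the low end. Vegfa, the main driver of vessel growth, differed by -1.12 ± 0.16 (adjusted p = 0.000169) and was named after its value was seen. Among 23 measured receptors for transmitters and hormones, 5 were higher in the atrium and 9 in the ventricle, and Adra1d, an alpha-1 adrenergic receptor, had the largest difference (-1.68 ± 0.09, adjusted p = 4.22e-08).

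Fuel use was where most members of a list lay on the ventricular side. Of 52 measured genes of fatty acid uptake and oxidation, 41 were higher in the ventricle and 4 in the atrium, 21 and 1 of them at 1.5-fold, with a median of -0.67. The mean level of the list was 8.54, 8.58 and 8.69 in the atrial pools and 9.36, 9.25 and 9.39 in the ventricular pools, without overlap. Medium-chain acyl-CoA dehydrogenase, Acadm, read 9.99, 9.99 and 10.25 in atrium and 12.002, 11.68 and 11.92 in ventricle (-1.79 ± 0.10, adjusted p = 6.72e-08, 3.47-fold). Acaa2, the thiolase that closes the cycle of beta-oxidation, differed by -2.08 ± 0.19 (adjusted p = 5e-06).

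Among them were genes of uptake, activation and the carnitine shuttle. Cd36, the fatty acid transporter of the cell surface, differed by -1.21 ± 0.08, and the cytosolic carrier Fabp3 by -0.85 ± 0.07. Acsl6, which activates fatty acids, read 3.81, 4.07 and 4.30 in atrium and 6.92, 7.08 and 6.74 in ventricle (-2.86 ± 0.15, adjusted p = 3.59e-08). The mitochondrial carnitine shuttle was represented by Cpt2 (-1.40 ± 0.07) and the carrier Slc25a20 (-1.30 ± 0.09), while its gate Cpt1b differed less (-0.44 ± 0.07). Bdh1, an enzyme of ketone body use, differed by -2.32 ± 0.18 (adjusted p = 1.3e-06), and Plin5, which ties lipid droplets to mitochondria, by -1.57 ± 0.14.

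Regulators of this pathway showed smaller differences in the same direction. The nuclear receptor Esrra differed by -0.70 ± 0.08, the coactivator Ppargc1a by -0.64 ± 0.08 and Ppara by -0.55 ± 0.17 (adjusted p = 0.025). The ventricular pools of Ppara spread from 4.16 to 4.88, and its call was lost without atrial pool 2 or 3 or ventricular pool 2 or 3 (adjusted p of 0.0574 to 0.106). Exceptions on the atrial side were Ucp2, an uncoupling protein of many tissues (0.98 ± 0.10), Acsl4, which activates arachidonic acid (0.55 ± 0.09), Acad11, an acyl-CoA dehydrogenase (0.36), and Fabp5, a fatty acid carrier of skin and fat (0.21), the last pair with calls that did not hold in every fit leaving out 1 array. Apart from Acadm, Acaa2, Acsl6 and Bdh1, the fatty acid genes were chosen for naming after their values were seen.

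**Figure D2:**
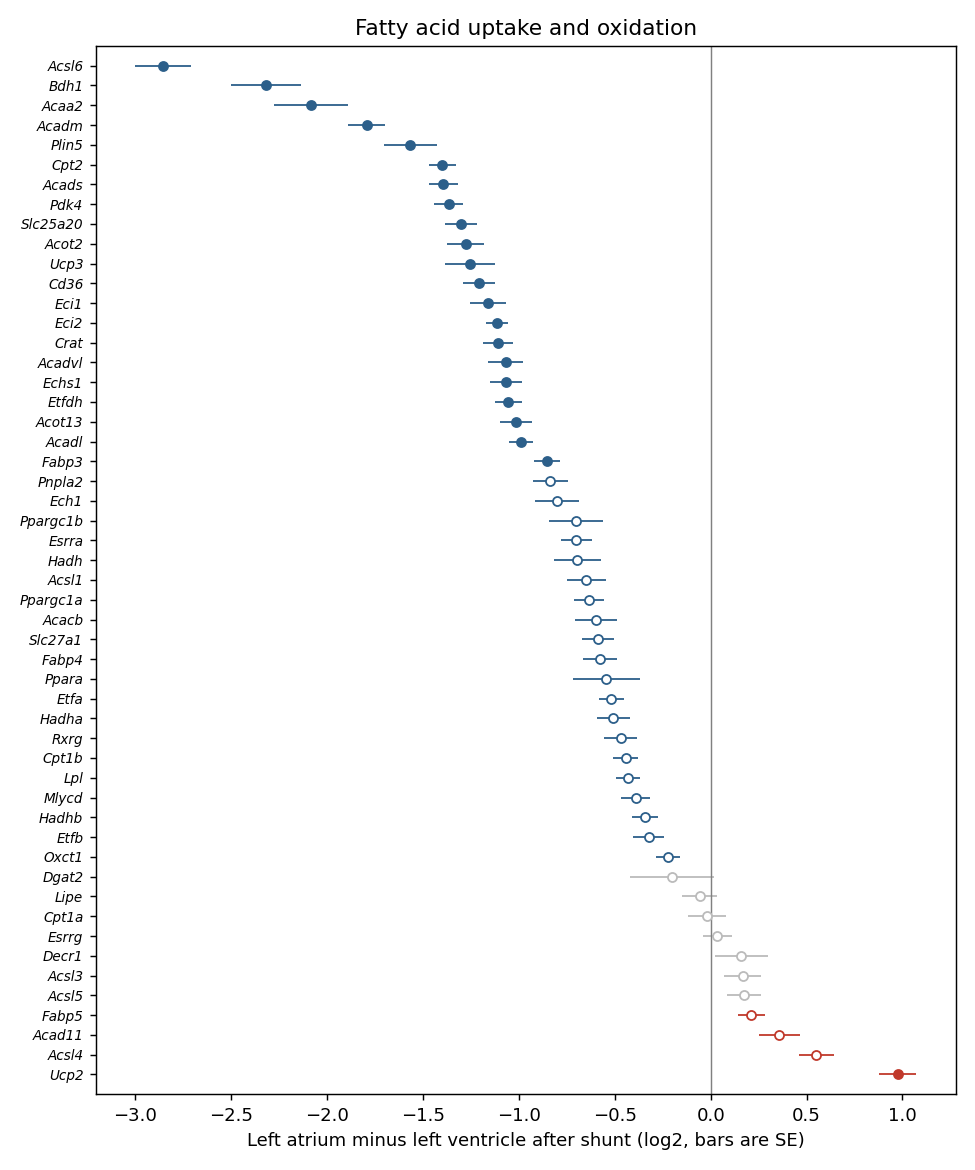
Difference between left atrium and left ventricle after shunt on the log2 scale (horizontal axis, bars are SE) for the 52 measured genes of fatty acid uptake and oxidation, with blue for higher in the ventricle, red for higher in the atrium and grey for genes that did not pass, and filled points for calls at 1.5-fold. The genes run from Acsl6 at -2.86 to Ucp2 at 0.98, and 41 of the 52 lie on the ventricular side with a call.

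The rest of mitochondrial metabolism was shifted the same way by smaller amounts. In the respiratory chain and ATP synthase, 49 of 67 measured genes were higher in the ventricle and 1 in the atrium (median -0.28), but only 1 was called at 1.5-fold. This was Cox7a1, whose promoter is shown above, with 7.43, 7.15 and 7.82 in atrium and 10.00, 9.57 and 10.01 in ventricle (-2.39 ± 0.16, adjusted p = 2.62e-07, 5.24-fold). The exception on the atrial side was Cox8a, another subunit of cytochrome c oxidase (0.40 ± 0.06), named after its value was seen. For the citric acid cycle and creatine kinases, 22 of 29 genes were higher in the ventricle and 1 in the atrium (median -0.45), and for the mitochondrial ribosome 41 of 58 and 0 (median -0.36). In each of these 3 lists 1 gene was called at 1.5-fold, all of them higher in the ventricle.

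Glucose genes were mixed, with 19 of 35 higher in the ventricle and 6 in the atrium (median -0.22). Slc2a1, the basal glucose transporter, read 5.47, 5.24 and 5.03 in atrium and 6.64, 6.42 and 6.6 in ventricle (-1.30 ± 0.12, adjusted p = 3.2e-06). Pdk1 and Pdk4, kinases that hold back glucose oxidation, differed by -1.49 ± 0.07 and -1.37 ± 0.08. Pdk4 is counted in the fatty acid list and not in the glucose list, and was named after its value was seen. Pfkp, the platelet form of phosphofructokinase, was higher in the atrium by 1.29 ± 0.10 (adjusted p = 1.16e-06). Aqp7, a channel for glycerol and water, read 4.22, 4.16 and 4.62 in atrium and 9.50, 8.87 and 9.57 in ventricle (-4.98 ± 0.22, adjusted p = 9.75e-09, 31.5-fold).

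Ribosomal protein genes of the cytosol leaned to the atrium by small amounts, with 30 of 35 measured genes higher there, a median of 0.26 and 1 call at 1.5-fold. That call was Rpl3, at 11.59, 11.60 and 11.55 in atrium and 10.19, 10.13 and 10.10 in ventricle (1.44 ± 0.06, adjusted p = 4.88e-09). Its muscle-specific paralogue Rpl3l read 4.12, 4.66 and 4.10 in atrium and 10.65, 10.46 and 10.39 in ventricle (-6.21 ± 0.13, adjusted p = 3.59e-11, 73.8-fold). The paralogues therefore stood on opposite sides in every pool, and Rpl3l was the only member of the list called higher in the ventricle. A further quantile normalization and a cyclic loess normalization gave list medians of 0.26 and 0.27, so the direction did not turn with the scaling.

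Matrix and connective tissue genes were higher in the atrium. Among collagens and other matrix proteins 33 of 60 measured genes were higher in the atrium and 4 in the ventricle, 14 and 0 of them at 1.5-fold, with a median of 0.44. Atrial pool 3 was the lowest atrial pool in 49 of the 60 genes and ventricular pool 2 the highest ventricular pool in 50, and the median was 0.293 without atrial pool 1 and 0.624 without atrial pool 3. Fmod, fibromodulin, which organises collagen fibrils, read 7.5, 7.96 and 7.27 in atrium and 5.17, 5.16 and 5.01 in ventricle (2.46 ± 0.24, adjusted p = 7.22e-06). Vcan, the large proteoglycan versican, read 8.19, 7.80 and 7.30 in atrium and 6.01, 6.65 and 5.85 in ventricle (1.59 ± 0.23, adjusted p = 0.000187). The fibrillar collagens differed less, Col1a1 by 0.83 ± 0.13 (adjusted p = 0.000303) and Col3a1 by 0.59 ± 0.08 (adjusted p = 8.68e-05), and neither reached a call at 1.5-fold.

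The 4 matrix genes higher in the ventricle were Col4a1 (-0.64), Col4a2 (-0.48), Col5a3 (-0.47) and Hspg2, perlecan (-0.37). All 4 were named after their values were seen. The laminin and nidogen genes of the list, which also belong to basement membranes, were not among them. Matrix enzymes and inhibitors followed the larger group, with 16 of 31 higher in the atrium and 4 in the ventricle, and Timp1, an inhibitor of matrix metalloproteinases, differed by 1.33 ± 0.15 (adjusted p = 1.85e-05). Of 25 measured fibroblast markers, 16 were higher in the atrium and 1 in the ventricle (median 0.59), among them Pdgfra, a receptor that marks resident fibroblasts (0.69 ± 0.07), named after its value was seen. The mean level of the fibroblast markers was 8.66, 8.67 and 8.24 in the atrial pools and 7.85, 8.16 and 7.84 in the ventricular pools, so atrial pool 3 stood close to ventricular pool 2. The part of fibroblast content in the matrix differences was not tested.

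**Figure D3:**
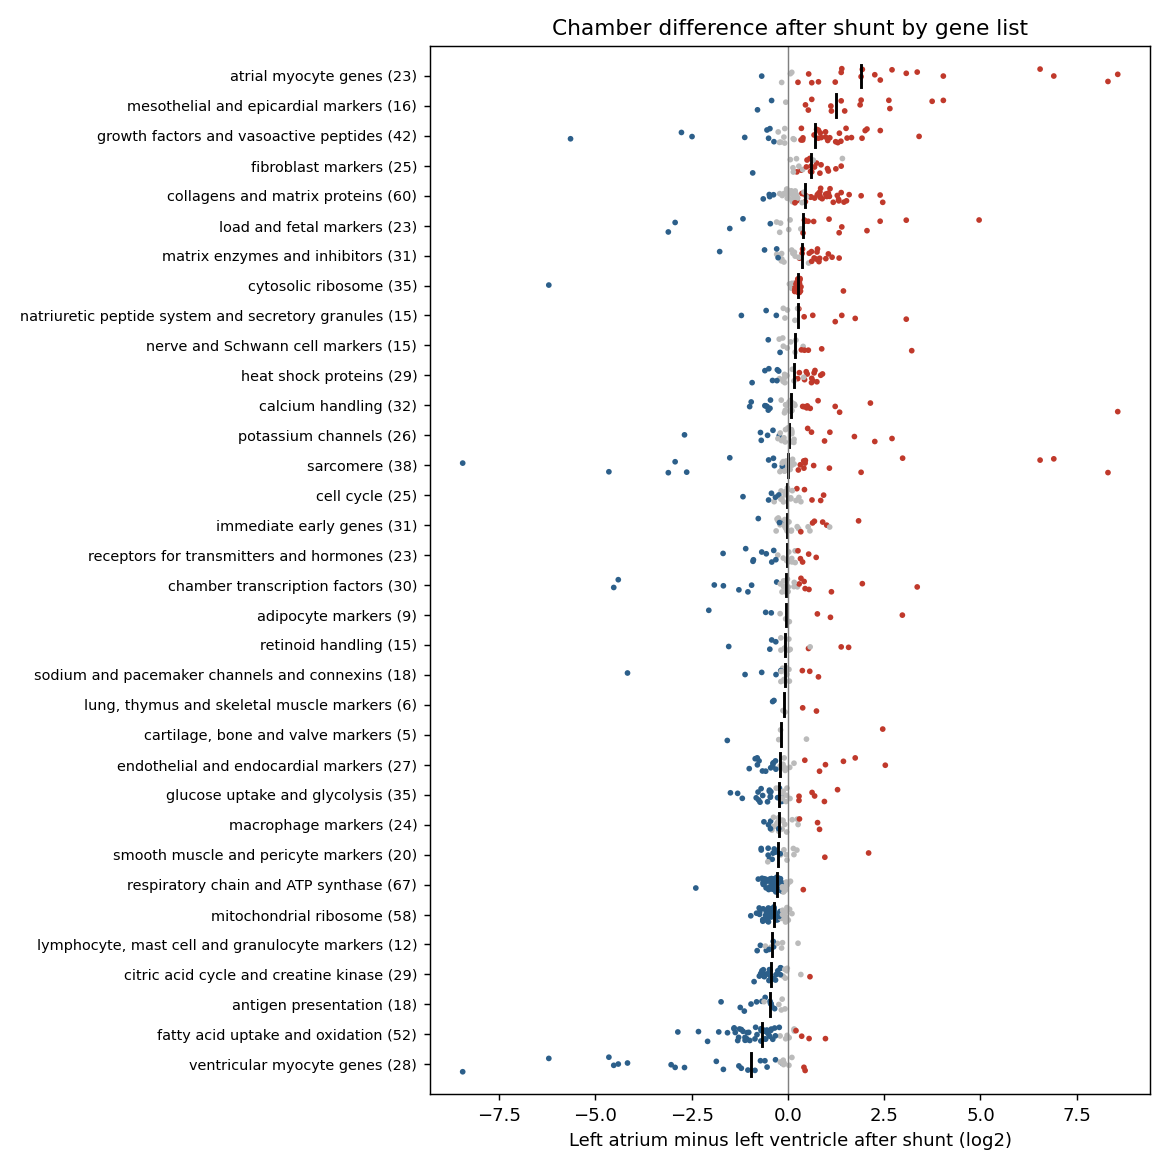
Difference between left atrium and left ventricle after shunt on the log2 scale (horizontal axis) for each measured member of 34 gene lists, with the number measured in brackets, red and blue for called genes, grey for the others and a bar at the median. The medians run from 1.90 for atrial myocyte genes to -0.95 for ventricular myocyte genes, with mesothelial markers at 1.26 and fatty acid genes at -0.67.

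Markers of the mesothelium, the outer lining of the heart, were higher in the atrium almost throughout. Of 16 measured genes, 13 were higher there and 2 in the ventricle, 10 and 0 of them at 1.5-fold, with a median of 1.26. Upk1b, a surface protein of mesothelial and urinary lining cells, read 7.51, 7.73 and 6.49 in atrium and 3.34, 3.17 and 3.12 in ventricle (4.04 ± 0.25, adjusted p = 1.82e-07). Msln, mesothelin, read 8.08, 8.07 and 7.48 in atrium and 4.29, 3.99 and 4.11 in ventricle (3.75 ± 0.17, adjusted p = 1.17e-08). Atrial pool 3 was the lowest atrial pool in 12 of the 16 genes, and even so lay far above each ventricular pool in Upk1b and Msln. The markers higher in the ventricle were Wt1, a factor of the epicardium that vessel cells of the heart also carry (-0.79 ± 0.10), and Krt7, a keratin (-0.42), both named after their values were seen. The mean level of the list was 6.15, 6.23 and 5.81 in atrium and 4.64 to 4.69 in ventricle.

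Blood vessel markers were mixed. Of 27 measured endothelial markers, 13 were higher in the ventricle and 6 in the atrium (median -0.20), but at 1.5-fold the counts were 1 and 3. The mean level of the list was 7.67, 7.65 and 7.58 in the atrial pools and 7.61, 7.65 and 7.66 in the ventricular pools, which overlapped. The 13 included Kdr and Flt1, receptors of vascular endothelial growth factors (-0.75 and -0.79), both named after their values were seen, and the capillary enzyme Car4 (-1.0). Plvap, which forms the diaphragms of fenestrated and endocardial endothelium, was higher in the atrium, with 7.61, 7.85 and 7.32 against 4.99, 5.32 and 4.89 (2.53 ± 0.14, adjusted p = 6e-08). Smooth muscle and pericyte markers were higher in the ventricle in 10 of 20 and in the atrium in 2. The only call at 1.5-fold in this list was on the atrial side, Myl9, a light chain of smooth muscle and other non-striated cells (2.10 ± 0.10, adjusted p = 1.43e-08).

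Immune genes of antigen presentation were higher in the ventricle in 13 of 18 and in the atrium in 0, with a median of -0.46. Cd74, the invariant chain of class II complexes, read 10.15, 9.90 and 9.82 in atrium and 11.16, 11.25 and 11.17 in ventricle (-1.24 ± 0.09, adjusted p = 6.1e-07). The class II genes of the RT1 locus have close relatives that may share probes, so values for single RT1 genes are uncertain. Of 24 macrophage markers 3 were higher in the atrium and 5 in the ventricle, 33.3% beside 45.6% of all genes, and 0 at 1.5-fold. Pools of a chamber varied in these markers: atrial pool 3 was the lowest atrial pool in 20 and ventricular pool 2 the highest ventricular pool in 22. Their mean level was 6.57, 6.61 and 6.14 in the atrial pools and 6.45, 6.72 and 6.50 in the ventricular pools, which overlapped. Of 12 measured lymphocyte, mast cell and granulocyte markers, 6 were higher in the ventricle and 0 in the atrium, again 0 at 1.5-fold. Cxcl11, a chemokine that recruits T cells, read 3.99, 3.90 and 3.49 in atrium and 8.56, 8.16 and 8.40 in ventricle (-4.58 ± 0.16, adjusted p = 2.06e-09, 23.9-fold).

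Nerve and Schwann cell markers were higher in the atrium in 5 of 15 and in the ventricle in 2. The largest was Mbp, myelin basic protein, at 8.21, 8.11 and 7.75 in atrium and 4.99, 4.87 and 4.57 in ventricle (3.22 ± 0.14, adjusted p = 7.37e-09), with 1.30 and 2.19 at its other probe sets. Sox10, the defining factor of Schwann cells, differed by -0.12 and did not pass, and was named after its value was seen. Fat cell markers were split, with 3 of 9 on each side. Car3, an enzyme of fat and slow muscle, was higher in the atrium, but its pools spread from 5.56 to 7.77 in atrium and from 3.69 to 4.22 in ventricle (2.97 ± 0.55, adjusted p = 0.00103). Gpd1, a glycerol phosphate dehydrogenase, was higher in the ventricle (-2.05 ± 0.14).

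Several of the widest differences belong to genes outside the usual chamber lists. Atp1b4, a muscle protein related to the beta subunits of the sodium pump, read 7.53, 7.85 and 8.20 in atrium and 2.23, 2.46 and 2.42 in ventricle (5.49 ± 0.14, adjusted p = 7.01e-11). Epha4, an ephrin receptor, read 10.45, 10.43 and 10.24 in atrium and 4.94, 5.43 and 5.17 in ventricle (5.19 ± 0.15, adjusted p = 3.07e-10). Both were separated by over 5 on the log2 scale, although the ventricular values of Atp1b4 lay at the bottom of the scale.

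Sytl2, a synaptotagmin-like protein of vesicle traffic, was higher in the atrium by 4.54 ± 0.17, Vsnl1, a neuronal calcium sensor, by 4.38 ± 0.19, and Rab15, a small GTPase of membrane traffic, by 3.82 ± 0.16. Obp3, an odorant-binding lipocalin, differed by 5.01 ± 0.11 (adjusted p = 3.59e-11). On the ventricular side were Gpsm1, a modulator of G protein signals (-4.14 ± 0.13), Tuba8, an alpha-tubulin of muscle and testis (-3.82 ± 0.14), Card9, an adaptor of innate immune signals (-3.33 ± 0.15), and Rimbp2, a protein of presynaptic calcium channels (-3.19 ± 0.16). The other probe sets of Obp3 (2.54), Gpsm1 (-2.77) and Vsnl1 (3.19) kept the direction with smaller sizes, and those of Rab15 gave 0.48 and 1.12.

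Set beside the sham hearts, the chamber pattern of the loaded heart was largely the one present without the load. Over 10606 genes the chamber differences after shunt and in sham correlated at r = 0.953 and rho = 0.908, a description across genes that are not independent of each other. The comparisons share no array, only the estimate of spread. In sham 703 genes were called at 1.5-fold (6.63%), and 562 genes were called in the same direction in both, which is 84.1% of the calls after shunt and 79.9% of the calls in sham. Of the 668 genes called after shunt, 667 had the same sign in sham.

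**Figure D4:**
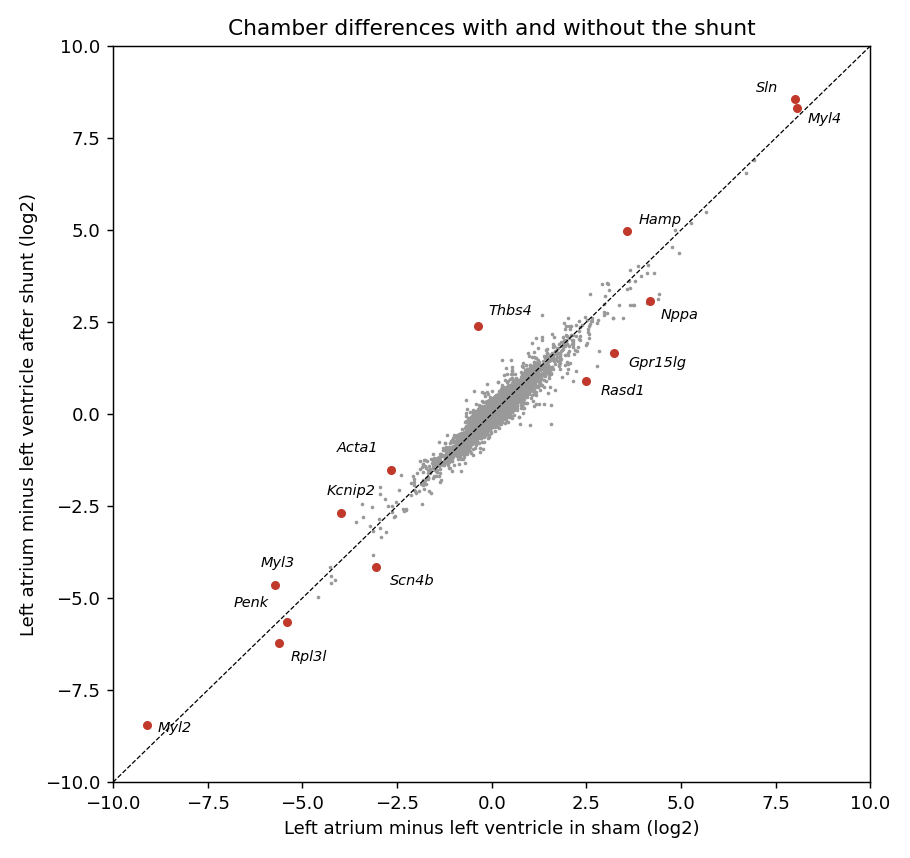
Difference between left atrium and left ventricle after shunt (vertical axis) against the same difference in sham (horizontal axis), both on the log2 scale, with 1 point per gene, a dashed line of equal differences and named genes in red. The 10606 genes lie along the line (r = 0.953), with Thbs4 at 2.40 after shunt and -0.36 in sham.

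The difference between the chamber differences was tested directly, as the interaction of chamber and operation in limma. It was called for 0 of 18625 probe sets (0.0%), while 1229 had an unadjusted p under 0.05 (6.6%). The smallest adjusted p was 0.0854. Hence no single gene is shown to have a chamber difference that the shunt made wider or narrower. This count was not stable: it was 19 without atrial shunt pool 3, 1 without atrial shunt pool 2, atrial sham pool 1 or ventricular shunt pool 2, and 0 without any of the other 8 arrays. With array weights, which give less influence to arrays that fit poorly, it was 11. Genes that passed with array weights and also without atrial shunt pool 3 were Gpr15lg, Scn4b, Klhl40, Alpl, LOC102553868, Gpc4 and Bex1. All but Gpr15lg and Scn4b were named after their values were seen. Atrial shunt pool 3 had the largest deviation from its group mean of any array (0.200), so passing in both fits is not separate support.

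Gpr15lg, a small secreted ligand, had the smallest interaction p and passed in 8 of the alternative fits. Among these fits was a fit that kept ventricular pool 2 as the only ventricular shunt array. Gpr15lg read 5.32, 5.51 and 4.94 in atrium and 3.80, 3.55 and 3.42 in ventricle after shunt, and 6.93, 6.88 and 7.0 against 3.85, 3.56 and 3.73 in sham. Its chamber difference was 1.66 ± 0.14 after shunt and 3.22 ± 0.14 in sham (interaction -1.56 ± 0.20, limma adjusted p = 0.0854). The atrial pools of the loaded hearts lay below those of the sham hearts and the ventricular pools overlapped. Rasd1, a small G protein induced by steroid hormones, read 5.19, 5.44 and 5.24 in atrium and 4.42, 4.0 and 4.73 in ventricle after shunt, and 7.15, 7.18 and 7.38 against 4.47, 4.88 and 4.91 in sham (interaction -1.58 ± 0.24, adjusted p = 0.177). It passed with array weights (-1.66, adjusted p = 0.0289) and without ventricular shunt pool 2 (-1.77, adjusted p = 0.0466).

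Thbs4, a thrombospondin of loaded and injured muscle, was called after shunt and not in sham. It read 8.75, 7.15 and 6.69 in the atrial and 4.93, 5.30 and 5.17 in the ventricular pools after shunt (2.40 ± 0.40, adjusted p = 0.000524, 5.26-fold). In sham it read 5.16, 4.40 and 4.43 in atrium and 5.15, 4.89 and 5.04 in ventricle, where the chambers overlapped (-0.36 ± 0.40). The interaction was 2.76 ± 0.57 and did not pass (adjusted p = 0.257), with a spread of over 2 on the log2 scale among the atrial shunt pools. Without atrial shunt pool 3 it was 3.18 and passed (adjusted p = 0.046).

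For 4 genes with ventricular excess the gap was narrower after shunt than in sham by value, and none of the 4 passed the interaction test. They were set together after their values were seen, and none of them passed in any alternative fit. The chamber difference of Acta1 was -1.51 after shunt and -2.67 in sham (interaction 1.16 ± 0.25, adjusted p = 0.257), and that of Kcnip2 -2.68 and -3.97 (1.28 ± 0.29, adjusted p = 0.295). For Myl3 it was -4.65 and -5.72 (adjusted p = 0.46), and for Myh7 -2.93 and -3.58 (adjusted p = 0.665). In each of the 4 genes the 3 atrial shunt pools read above the 3 atrial sham pools. Scn4b went the other way, with -4.16 after shunt and -3.06 in sham (interaction -1.10 ± 0.23, adjusted p = 0.257). Its interaction passed without atrial shunt pool 3 (-1.35, adjusted p = 0.00355) and with array weights (-1.30, adjusted p = 0.0289). Without the 3 shunt arrays of highest hexokinase difference, atrial pool 3 and ventricular pools 1 and 3, it was -1.21. That fit kept only ventricular pool 2. Scn4b read highest in pool 3 among the atrial shunt pools, and that array deviated most from its group mean (0.200). These fits all bear on that pool and are not separate support. Nppa differed by 3.07 after shunt and 4.18 in sham (adjusted p = 0.644), with the atrium at the upper end of the scale in both. Without those same 3 shunt arrays the interaction of Nppa was -1.91. That value rests on ventricular pool 2 alone, which had the highest Nppa value of the ventricular shunt pools. Hamp differed by 4.96 after shunt and 3.58 in sham (adjusted p = 0.651).

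**Figure D5:**
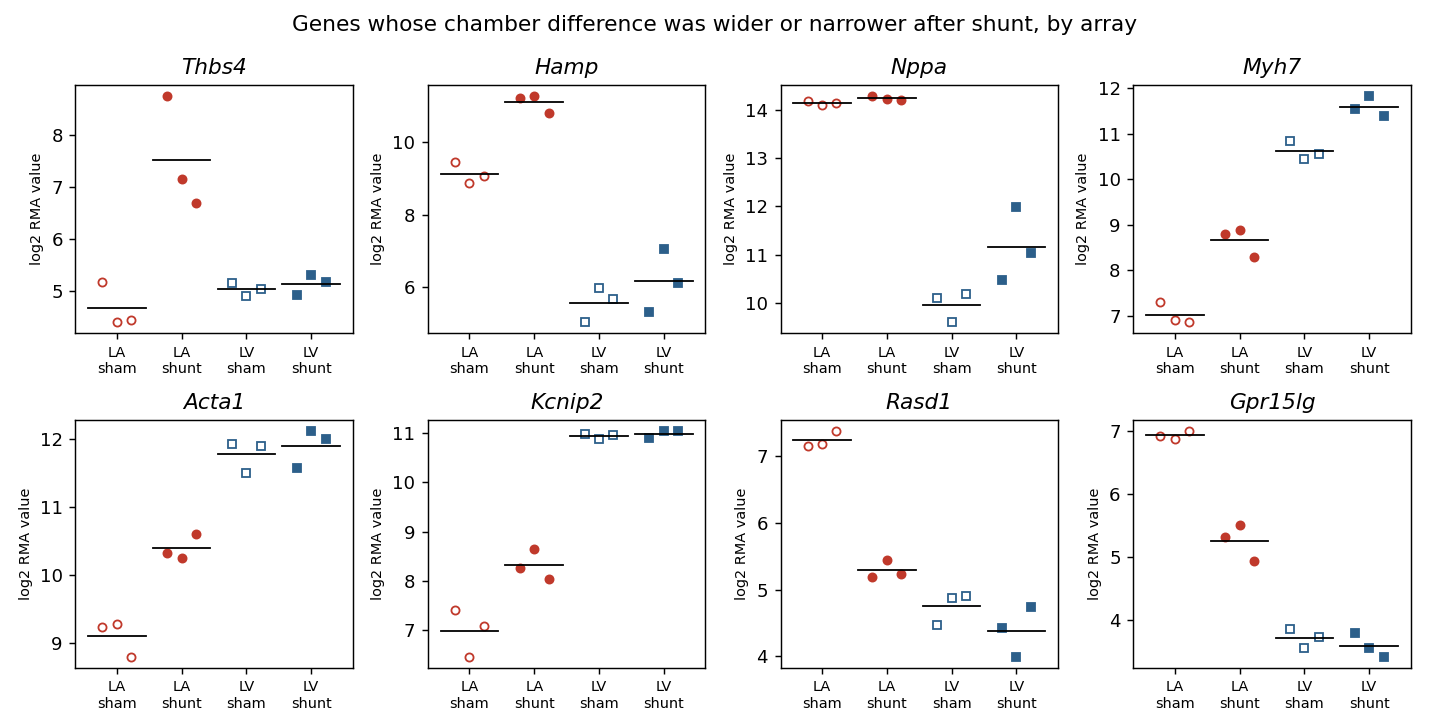
Log2 RMA value (vertical axis of each panel) of 8 genes in each of the 12 arrays, by chamber and operation, with a line at each group mean. Thbs4 read 6.69 to 8.75 in the atrial shunt pools and 4.40 to 5.16 in the atrial sham pools, while the interaction was called for none of the 8 genes in the fit to all arrays.

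As a list, the 23 measured load and fetal markers had 12 genes higher in the atrium and 5 in the ventricle after shunt, against 9 and 7 in sham (where 27.6% and 22.6% of all genes were called in these directions), with medians of 0.39 and 0.17. Whether these counts differ was not tested. Of the atrial myocyte genes 19 were higher in the atrium after shunt and 20 in sham (medians 1.90 and 1.99). For fatty acid genes 41 were higher in the ventricle after shunt and 39 in sham (medians -0.67 and -0.64). For collagens and matrix proteins 33 were higher in the atrium in each (medians 0.44 and 0.36).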

How the data were processed

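Expression was measured on 12 one-colour Affymetrix rat arrays from biotinylated cRNA, with 10 µg of total RNA as the input according to the labels' protocols. The deposited values are on a log2 scale, made by the authors with RMA, per the submitters' processing notes. The version of RMA and which arrays were normalized together are not given in the sources used here. Their number, 3 per group, limits the precision.

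Of 31099 probe sets, 57 controls were left out, and those with a mean over the 12 arrays at or above the 40th percentile (4.01) were tested, 18625 in all. Names came from GEO's platform annotation, updated to RefSeq GRCr8 symbols. A single symbol was held by 20826 of the 31042 remaining probe sets, several by 436 and none by 9780; probe sets of the first kind alone were named. The gene identifier matched for 20758, and the other 68 stayed under the annotation's name. Each of 10606 genes was read from the tested probe set with the highest mean. Gene lists held 1147 genes, of which 1022 were on the array and 848 were measured.

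limma 3.58.1 (lmFit, eBayes, treat) in R 4.3.3 was fitted to all 12 arrays with a mean for each group and without a block, so the spread is shared by all groups. Tests were two-sided, with Benjamini-Hochberg adjustment and a threshold of 0.05. On simulated data for this comparison with 18625 probe sets, 50 probe sets were given a change at each size. Of these, 70% were found at 0.5 (log2), 96% at 1, 98% at 1.5 and 98% at 2, with 10 other calls. Far fewer probe sets were changed than the 41.9% called in the data, so these rates describe the simulated setting alone. Named genes were the 15 of largest difference in each direction, up to 4 passing members of each list, a set of chamber genes, and the 5 of smallest interaction p in each direction, with others said to be chosen after their values were seen. The members, lists and rules were chosen with earlier results of these data known. The motifs were searched 1 by 1, and matches of different motifs may overlap.

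Alternatives tried were a filter at the 60th percentile or none, further quantile or cyclic loess normalization, a trended and robust prior, weighted arrays, a fit to the 2 groups compared alone, a block for replicate number, a minimum fold of 1.5, 1 probe set or the mean of the probe sets per gene, the hexokinase difference as a covariate, a fit without the 3 shunt arrays where it was highest, and leaving out each array.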

Additional observations from a re-analysis of the deposited data

Results flagged for a closer look

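Myot, which encodes myotilin, a Z-disc protein of skeletal muscle, had chamber differences of opposite sign in the 2 operations with no overlap between chambers in either. It read 4.39, 4.6 and 4.36 in atrium and 3.86, 3.91 and 3.72 in ventricle after shunt, and 4.10, 3.78 and 4.08 against 4.67, 4.12 and 4.55 in sham. All these values lay near the filter's cut of 4.01, so background may make up much of them. The difference was 0.62 after shunt and -0.46 in sham, and the difference between them, 1.08, did not pass in limma (adjusted p = 0.232). Myh13, a myosin heavy chain of eye muscle with close relatives that may share probes, differed by 0.09 after shunt and -0.42 in sham, where its arrays did not overlap in either operation, and the difference of 0.51 did not pass (adjusted p = 0.249). Over all genes, 32 had arrays that did not overlap in both operations and differences of opposite sign, out of 4756 that did not overlap in both.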

How the results depend on the processing

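After shunt, 5430 to 8724 probe sets were called in all alternatives other than a minimum fold of 1.5, which left 1029 (1112 in sham), and 6666 to 7957 in the fits leaving out 1 array (7340 to 9346 in sham). The 5430 came from the fit without the 3 shunt arrays of highest hexokinase difference, which has fewer arrays. The interaction, called for 0 probe sets, gave 1 with a trended and robust prior, 1 with the hexokinase difference as a covariate, 11 with array weights, 15 without those 3 shunt arrays and 0 to 19 when 1 array was left out, and the cause was not tested. Leaving aside Klhl40, Alpl, LOC102553868, Gpc4 and Bex1, 122 called genes are named here. Of these, 118 kept the call in each of the 12 fits leaving out 1 array. In every alternative other than the minimum fold 116 kept it, and 0 changed sign. Those that lost it were Acad11, Fabp5, Myot, Npr1, Ppara and Tgfb1. Myot and Npr1 lost it only without the 3 shunt arrays of highest hexokinase difference. Gja1, not called, turned to -0.023 with array weights, to -0.20 with the mean of its probe sets, and ranged from -0.040 to 0.068 when 1 array was left out. Of 34 list medians, 14 were above 0 (13 to 18 in the alternatives) and 9 changed sign in some alternative, among them transcription factors, potassium channels, sarcomere and receptors, for which no direction is given. The labels do not say that replicate numbers mark shared rats, so the numbers were not taken as a pairing. Same-numbered chambers deviated together at r = -0.24, 0.44 and 0.44 after shunt and 0.23, 0.26 and 0.07 in sham. For different numbers r ran from -0.62 to 0.45 after shunt and from -0.23 to 0.03 in sham. In sham every same-numbered value lay above these. Whether chambers came from shared rats was not tested. With the replicate number as a block, 8057 probe sets were called over all groups and 6346 in the shunt arrays alone, against 6364 there without it.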

Other observations

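Of 29 measured heat shock proteins, 13 were higher in the atrium and 7 in the ventricle after shunt. Their median was 0.16, and 0.0921 without ventricular pool 2, and the only call at 1.5-fold was Hspb6, higher in the ventricle. Dnajc3, Hspa5 and Hsp90b1, chaperones of the endoplasmic reticulum, were higher in the atrium by 0.75, 0.68 and 0.62, and Hspb6, a small heat shock protein of muscle, differed by -0.93 ± 0.06 (limma adjusted p = 1.9e-07). The 3 chaperones were named after their values were seen. Of 31 immediate early genes, 6 were higher in the atrium and 3 in the ventricle, 29.0% beside 45.6% of all genes, and Rgs2, a brake on G protein signals, was the only one called at 1.5-fold (1.84 ± 0.16). Cell cycle genes were split, 5 of 25 on each side, with Cdkn1a, an inhibitor of division, at -1.16 ± 0.11.

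Of 15 measured retinoid genes 3 were higher in the atrium and 4 in the ventricle. The atrial ones included a gene of each step that makes retinoic acid, Rdh10 (1.58 ± 0.10) and Aldh1a2 (1.38 ± 0.13). Aldh1a2 is also a marker of the epicardium. The list's median was -0.08 and changed sign in some alternatives, and its lowest member stood at -1.535. No direction is therefore given for retinoic acid synthesis. Of 6 measured lung, thymus and skeletal muscle markers 2 lay on each side, with 0 at 1.5-fold. Of 5 measured cartilage, bone and valve markers, Fmod was higher in the atrium and Scx, a factor of tendons and valves, in the ventricle (-1.57), and the other 3 did not pass.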
